A study of Mus musculus with 6 samples.

Results

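The genes described here encode core factors of pre-mRNA splicing in mouse haematopoietic stem cells (HSCs). They were chosen by symbol: Srsf followed by a number, any symbol that begins with Snrp, Sf3a or Sf3b followed by a number, and U2af1, U2af2 and Zrsr2. The rule found 35 of 23955 symbols in the table of TPM (a transcript abundance corrected for transcript length and scaled to the same total in each library). The cells were CD150+CD48-LSK HSCs (lineage-negative, Sca-1+, c-Kit+) sorted from the bone marrow of 4-month-old C57BL/6 mice. The control group was WT littermates and the other group was db/db mice, which are homozygous for a leptin receptor mutation and obese, with no further allele or agent in either group. The mutation is carried in every cell of the body, so the marrow niche and the hormonal state differ along with the HSCs. Each of 3 independent experiments gave 1 WT and 1 db/db library of 20000 cells, so n = 3 per group, but the labels do not say how many mice gave a library. The comparison asks which transcripts differ in HSCs from obese mice.

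Splicing removes introns from a primary transcript in a sequence of assembly steps on the spliceosome. The U1 small nuclear ribonucleoprotein (snRNP) binds the 5' splice site, the U2AF dimer binds the polypyrimidine tract and the AG at the 3' splice site, and the U2 snRNP with its SF3a and SF3b subcomplexes binds the branch site. The Sm proteins form a ring around the RNA of the U1, U2, U4 and U5 snRNPs. SR proteins carry a domain rich in arginine and serine, bind exons and help to recruit these factors, and they also take part in mRNA export. In blood, SF3B1, SRSF2, U2AF1 and ZRSR2 are known as recurrent targets of somatic mutation in myelodysplastic syndromes and clonal haematopoiesis.

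Read depth per library is unknown, because TPM does not keep it. Between 13314 and 13810 symbols were above 0 per library, and the size factor of a library (median of ratios to the gene means) was lowest in WT replicate 2 (0.815) and highest in db/db replicate 3 (1.23). The HSC markers examined (Procr, Slamf1, Kit, Ly6a, Mecom, Hlf, Fgd5 and Cd34) were above 0 in every library. These 8 genes summed to 954 to 1472 TPM in WT and 1183 to 1501 TPM in db/db libraries, all 8 had a higher mean in db/db, and 0 passed the test used below. All 9 granulocyte and monocyte markers had a higher mean in db/db, with sums of 277 to 4394 TPM in WT, the highest in WT replicate 1, and 1313 to 3633 TPM in db/db libraries. Of 6 erythroid markers 4 had a higher mean in db/db, with sums of 71.7 to 139.7 TPM in WT and 286 to 1375 TPM in db/db, and 1 of them, the globin gene Hbb-b2, passed the test used below. Of 5 megakaryocyte markers 4 had a higher mean, with sums of 359 to 637 and 464 to 759 TPM. The 7 B and T lymphocyte markers summed to 33.6 to 61.3 TPM in WT and 29.5 to 61.4 TPM in db/db, and Pax5, Cd3e and Cd3g were at 0 in every library. The part of these other cell types in the values below was not tested, and in sorted bulk cells fewer cells of a type and less RNA per cell cannot be told apart. Lepr was 2.34 to 2.93 TPM in WT and 1.51 to 2.44 TPM in db/db libraries. Since the db allele alters how the signalling isoform is spliced, a value summed over isoforms is no check of genotype.

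Splicing factor transcripts were abundant in HSCs, and their order by mean was nearly the same in both genotypes. The median member was at 84.3 TPM, against 15.8 TPM for the 11931 genes tested, which were those with a mean of at least 1 TPM, and 32 of 35 members lay above that median. Together they made up 0.486% to 0.568% of the TPM in a library, and 32 members were at 10 TPM or more in all 6 libraries. The most abundant was Snrpg, a subunit of the Sm ring, at a mean of 1081 TPM over the 6 libraries. It was followed by the SR protein genes Srsf5 at 533 TPM and Srsf2 at 507 TPM, and then by Snrpd2 at 351, Srsf3 at 349 and Snrpe at 336 TPM. The next were at 185 TPM and below, and 14 members reached 100 TPM in the means of both genotypes. The order of the 35 means in WT and in db/db gave a Spearman's rho of 0.97 over members, which are not independent replicates. No rho over all genes is given beside it, so it is no trait particular to the members.

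**Figure D1:**
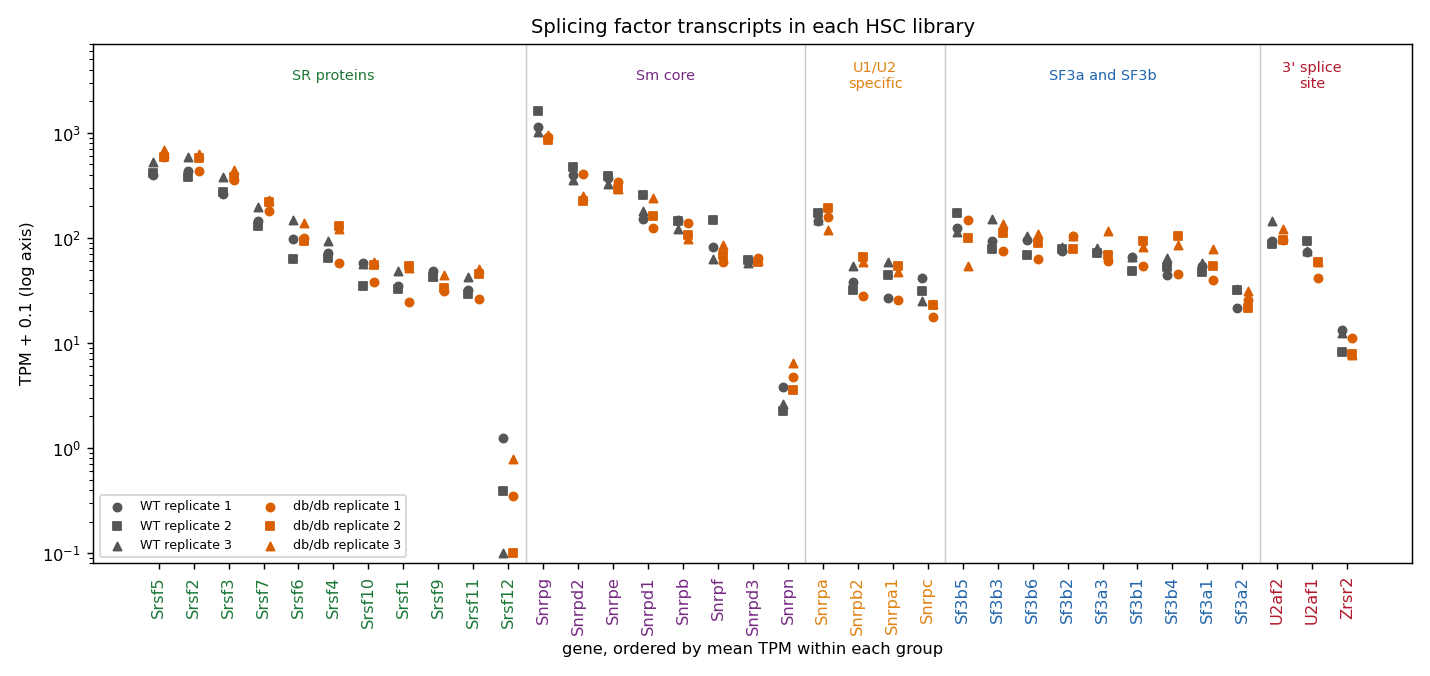
TPM of each splicing factor gene in each library on a log axis after adding 0.1, with genes grouped by role and ordered by mean within a group. Grey points are the 3 WT libraries and orange points the 3 db/db libraries; 32 genes are at 10 TPM or more in every library, Snrpg lies highest, and Snrpn and Srsf12 lie lowest.

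The comparison of db/db with WT HSCs found no splicing factor gene that passed. It used limma on log2(TPM + 1), a scale that understates changes of low genes, over all 11931 genes, with Benjamini-Hochberg adjustment and an adjusted p under 0.05 as the threshold. Of the 34 members that could be tested 0 passed in either direction, where 4 of all genes tested, or 0.0335%, did. Adjusted p in limma ran from 0.919 to 0.998 over the members. Their log2 fold changes lay between -0.61 and 0.60, with standard errors (SE) of 0.22 to 0.50. The median over members was 0.02, against 0.18 over all genes, so on the TPM scale the members lay 0.16 below the median gene, with 11 above it and 23 below. This distance was smaller without WT replicate 2 (-0.085) or db/db replicate 1 (-0.095) and larger without db/db replicate 3 (-0.24). After median-of-ratios scaling the median of all genes was 0.0031 and that of the members -0.17, so signs near 0 depend on the scaling.

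At an unadjusted p under 0.05, 1 member was higher in db/db (Srsf5), where 4.1% of all genes were. At the same threshold 3 members were lower (U2af1, Snrpd2 and Snrpg), where 1.25% of all genes were, or 5.35% in either direction. Over all genes this split was 489 higher and 149 lower on the TPM scale, but 297 and 355 after median-of-ratios scaling, where 0 members were higher and 4 lower, Snrpc being the addition. With the size factor of the library as a covariate, U2af1 alone was below 0.05, where 353 of all genes were higher and 302 lower. Without the trend in limma no member was (all genes 457 and 148). With the length trend removed Srsf5 alone was (509 and 118), and with the GC trend removed Snrpg alone was (534 and 140). Groups did not overlap for 1 member higher in db/db (Srsf5, against 7.85% of all genes) and for 3 lower (Snrpg, U2af1 and Snrpc, against 2.32%). The sign was the same in all 3 experiments for 6 members with db/db higher, against 22.7% of all genes, and for 6 with db/db lower, against 7.55%. Experiments differed: the median difference over members was -0.17 in experiment 1, 0.17 in experiment 2 and 0.08 in experiment 3, where all genes gave 0.00, 0.45 and 0.09. Without WT replicate 1, the library with the highest granulocyte sum, 0 members passed and 0 had an unadjusted p under 0.05 in limma. Over all genes 287 were higher and 113 lower at that threshold. Members also gave 0 on both counts without WT replicate 2 (all genes 264 and 131) or db/db replicate 2 (333 and 122). Without WT replicate 3, Srsf3, Srsf5 and Srsf7 were higher and Snrpd2, Snrpg and U2af1 lower at that threshold (936 and 140). Without db/db replicate 1, Sf3b4, Srsf4 and Srsf5 were higher and Sf3b5 and Snrpd2 lower (874 and 224). Without db/db replicate 3, U2af1 alone was below 0.05 (316 and 175).

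**Figure D2:**
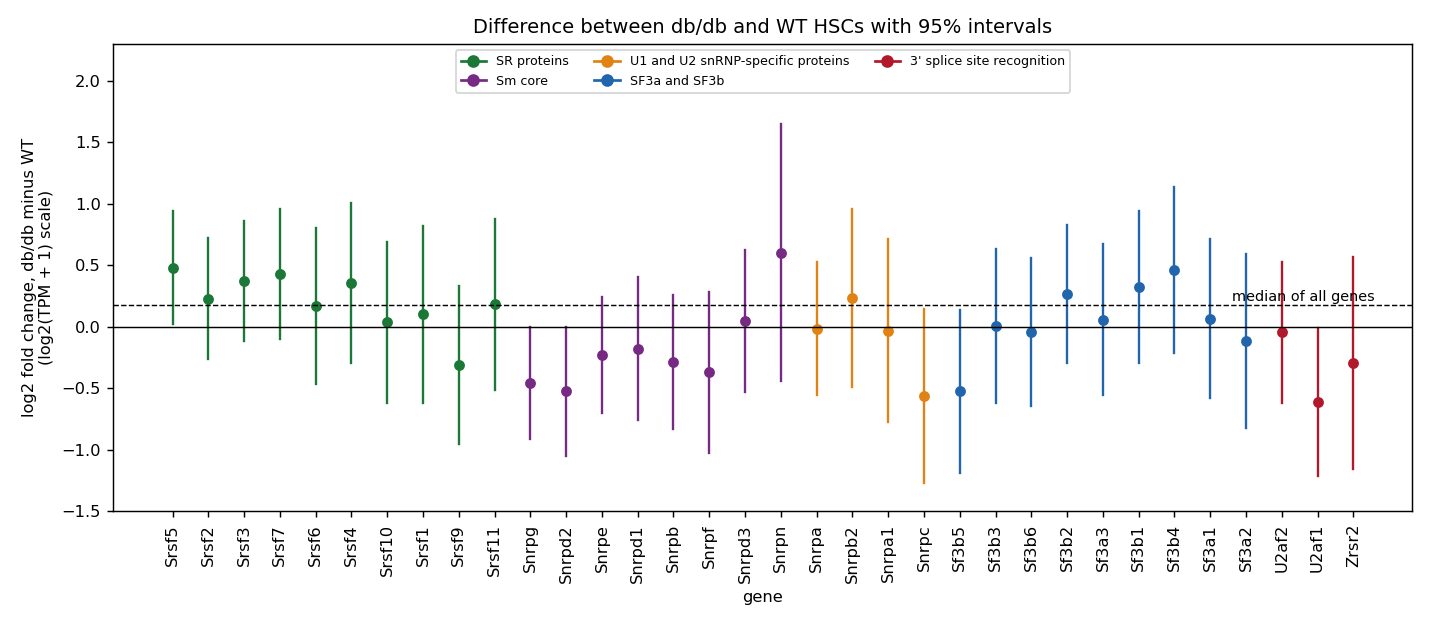
Log2 fold change of db/db minus WT for the 34 members tested, with 95% intervals from limma, coloured by role. The dashed line is the median of all genes at 0.18; the intervals of Srsf5, Snrpg, Snrpd2 and U2af1 end just on 1 side of 0 and those of the other members span it.

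Among the SR protein genes, the 4 most abundant were higher in db/db in every experiment, as were 22.7% of all genes, and none passed. For Srsf2 the log2 difference in experiment 1 was only 0.0030. On the same unscaled TPM the median difference over all genes was 0.00, 0.45 and 0.09 in experiments 1 to 3. Srsf5, which encodes the SR protein SRp40, gave 396, 410.0 and 532 TPM for WT replicates 1 to 3, and 582, 585 and 693 TPM for db/db replicates 1 to 3, which came from experiments 1 to 3 in that order. The lowest db/db library thus lay above the highest WT library. Means were 446 ± 75.1 and 619.9 ± 63.0 TPM (SD, n = 3 each), and the log2 fold change was 0.48 (SE 0.22, adjusted p in limma 0.919), or 0.29 after median-of-ratios scaling. Srsf7, whose product also serves as an adaptor for mRNA export, was 145, 129 and 197 TPM in WT and 181, 220.3 and 228 TPM in db/db libraries. Srsf3, the smallest SR protein and another export adaptor, was 263, 275 and 378 TPM in WT and 355, 383 and 439 TPM in db/db libraries. For both, WT replicate 3 overlapped the db/db range, and the log2 fold changes were 0.43 (95% interval -0.10 to 0.96) and 0.37 (-0.11 to 0.86).

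Srsf2, an SR protein that stays in the nucleus and is a known mutation target in myeloid disease, was 433, 376 and 594 TPM in WT and 434, 571 and 631 TPM in db/db libraries. The groups overlapped, and the difference was 0.60 in experiment 2 but 0.00 and 0.09 in experiments 1 and 3. Its log2 fold change was 0.23 (SE 0.24, limma adjusted p = 0.921), and ran from 0.087 (WT replicate 2 left out) to 0.42 (WT replicate 3 left out). It was 0.035 after median-of-ratios scaling and -0.030 with the size factor as a covariate. Srsf4, Srsf6, Srsf10, Srsf1 and Srsf11 had fold changes of 0.04 to 0.36 with overlapping groups, and Srsf9, a close relative of Srsf1, was the only SR gene tested with a negative one (-0.31, SE 0.31). Srsf4, Srsf10, Srsf1 and Srsf11 were lower in db/db in experiment 1 and higher in experiments 2 and 3. Srsf12 was the member that was too low to test, listed at 1.14, 0.29 and 0 TPM in WT and 0.25, 0 and 0.68 TPM in db/db libraries. The median over the 10 SR genes tested was 0.21, which is 0.03 above all genes, or -0.041 relative to them without db/db replicate 3. Srsf2, Srsf3 and Srsf5 supplied 69.1% to 75.0% of the summed SR TPM in every library.

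The genes of the Sm ring lay mostly below the median gene. Of 8 tested, 7 had a fold change below the median of all genes and 1 above, and the list median was -0.26, or -0.44 relative to all genes. The relative median was -0.17 without WT replicate 2 and -0.64 without WT replicate 3. Snrpg was 1126, 1629 and 1027 TPM in WT and 904, 852 and 949 TPM in db/db libraries. All db/db libraries lay below all WT libraries, and WT replicate 2 stood highest. Means were 1261 ± 323 and 902 ± 48.5 TPM (SD, n = 3 each), and the log2 fold change was -0.45 (SE 0.22, limma adjusted p = 0.919). Without WT replicate 2 it was -0.26, smaller by more than 1.5 times. Snrpd2 was 399.6, 474 and 356 TPM in WT and 402, 225 and 251 TPM in db/db libraries. Here db/db replicate 1 stood with the WT libraries, and the difference of 0.01 in experiment 1 contrasted with -1.07 and -0.51 in experiments 2 and 3. Its fold change was -0.52 (SE 0.25, limma adjusted p = 0.919).

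Snrpe and Snrpb were lower in db/db in all 3 experiments by smaller steps, with log2 fold changes of -0.23 and -0.28 and overlapping groups. Snrpd1 and Snrpf were lower in experiments 1 and 2 and higher in experiment 3, and Snrpf held 149 TPM in WT replicate 2 against 62.7 to 84.7 TPM in the 2 libraries of experiment 3. Snrpd3 was the steadiest member, at 59.6 ± 1.47 TPM in WT libraries and 61.6 ± 2.18 TPM in db/db libraries (SD, n = 3 each), with a log2 fold change of 0.05 (95% interval -0.53 to 0.63). In the assembled ring each of the Sm proteins is present once, yet the transcripts were unequal: Snrpg stood above Snrpd3 18.8, 26.7 and 17.7 times in WT replicates 1 to 3, but 14.2, 14.3 and 15.4 times in their db/db counterparts. This ratio lies within a library and does not depend on scaling. The pair was chosen after its values were seen, neither gene passed, and the ratio carries no test.

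Snrpn, the imprinted relative of Snrpb best known from neurons, was 3.75, 2.15 and 2.53 TPM in WT and 4.62, 3.44 and 6.41 TPM in db/db libraries. It was the lowest of the Sm genes, its groups overlapped, and its log2 fold change of 0.60 had the widest SE of all members (0.50, limma adjusted p = 0.920). Because RSEM divides reads between similar genes, the first 90 coding bases of this pair are shown, read from GENCODE M21 transcripts, with the bases that differ in capitals.
Snrpb: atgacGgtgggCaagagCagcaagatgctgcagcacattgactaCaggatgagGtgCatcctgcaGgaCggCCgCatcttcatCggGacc
Snrpn: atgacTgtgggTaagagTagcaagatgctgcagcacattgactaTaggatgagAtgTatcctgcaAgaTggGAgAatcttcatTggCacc
The stretch holds 13 mismatches. Over 696 aligned bases the identity was 80.2%, and the longest identical run was 32 bases, shorter than the reads of 75 nucleotides. No window of 75 bases in Snrpb occurred in a transcript of another gene. For Snrpn 18.9% of windows were shared with 3 other GENCODE genes, of which Snurf (6.82%), the reading frame upstream on the same transcript, is a symbol of the table, and Snurf was listed at 0.12 to 0.29 TPM, so their sum of 2.28 to 6.70 TPM stayed close to Snrpn alone.

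Of the 4 genes for proteins specific to the U1 and U2 snRNPs, Snrpc had groups that did not overlap, with db/db lower, as for 2.32% of all genes. Snrpc, the U1 subunit that stabilises pairing with the 5' splice site, was 41.1, 31.0 and 25.2 TPM in WT and 17.6, 23.1 and 23.5 TPM in db/db libraries. Every db/db library was below every WT library, but the distance in experiment 3 was small. Within experiments the differences were -1.18, -0.41 and -0.10, and the log2 fold change was -0.56 (SE 0.34, limma adjusted p = 0.919). Snrpa, the U1 subunit that binds a stem-loop of U1 RNA, was 155 ± 15.7 TPM in WT libraries and 156 ± 37.0 TPM in db/db libraries (SD, n = 3 each), with a log2 fold change of -0.02 (95% interval -0.55 to 0.52). Its direction turned under 5 of the 14 alternative fits that kept all 6 libraries. By library it was 145, 173 and 147 TPM in WT and 158, 192 and 118 TPM in db/db, so that the db/db libraries lay on both sides of the WT range. Snrpa1, a protein of the U2 snRNP, was 26.9, 43.8 and 58.9 TPM in WT and 25.3, 53.9 and 47.5 TPM in db/db libraries (log2 fold change -0.03, SE 0.36). Snrpb2, its partner on U2 RNA, was 37.8, 31.8 and 54.5 TPM in WT and 28.03, 65.4 and 58.4 TPM in db/db libraries (log2 fold change 0.23, SE 0.35). Its fold change ran from 0.0070 without db/db replicate 2 to 0.60 without db/db replicate 1, and was also lower by more than 1.5 times without WT replicate 2 (0.066) or db/db replicate 3 (0.087). Both were lowest in experiment 1 within the db/db group.

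The 9 genes of SF3a and SF3b, which hold the branch site in the U2 snRNP, had fold changes on both sides of 0. They were above 0 for 6 and below 0 for 3, with a median of 0.06. Against the median of all genes 3 lay above and 6 below, with a relative median of -0.12, or -0.06 without db/db replicate 1 or 2 and -0.28 without db/db replicate 3. Sf3b1, the largest SF3b subunit and a known mutation target, was 65.1, 48.4 and 65.0 TPM in WT and 54.5, 92.6 and 81.0 TPM in db/db libraries. It was lower in db/db in experiment 1 and higher in experiments 2 and 3, so the groups overlapped, and its log2 fold change was 0.33 (95% interval -0.29 to 0.95), or 0.17 and 0.55 when db/db replicate 2 or 1, respectively, was left out. Sf3b4, which contacts RNA upstream of the branch site, was 44.4, 52.9 and 64.8 TPM in WT and 45.3, 105 and 84.8 TPM in db/db libraries, with a difference of 0.03 in experiment 1 and 0.98 in experiment 2. Sf3b5, a small subunit, went the other way on average. It was 124, 171 and 114 TPM in WT and 148, 101 and 54.0 TPM in db/db libraries, giving -0.52 on the log2 scale (SE 0.32, adjusted p in limma 0.919), with db/db higher in experiment 1. This value was -0.14 without db/db replicate 3, -0.86 without db/db replicate 1 and -0.14 with the size factor as a covariate. The remaining Sf3b2, Sf3b3, Sf3b6, Sf3a1, Sf3a2 and Sf3a3 had fold changes of -0.12 to 0.27. These genes were more even in level than the Sm genes, and the highest exceeded the lowest by 4.29 to 5.76 times within a library.

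Of the genes for recognition of the 3' splice site, U2af1 had the lowest fold change of all members. U2af1, the U2AF subunit that reads the AG, was 74.0, 94.1 and 74.2 TPM in WT and 41.5, 58.4 and 58.5 TPM in db/db libraries. No db/db library reached the WT range. Means were 80.8 ± 11.6 and 52.8 ± 9.80 TPM (SD, n = 3 each), with differences of -0.82, -0.68 and -0.34 within the experiments and a log2 fold change of -0.61 (SE 0.29, adjusted p in limma 0.919). It was lower in db/db under each of the 20 alternatives (log2 fold change -0.80 to -0.45, limma adjusted p 0.552 to 0.99995) and passed under none. Of the 75-base windows in U2af1 transcripts 44.4% also occurred in transcripts of 3 other GENCODE genes, none of which is a symbol of the table. How such reads were assigned is not given, and the level of U2af1 may depend on it. Windows were also shared with other genes for Sf3b4 (43.2%), Srsf3 (25.2%) and, at 13.0% to 18.9%, Snrpn, Snrpf, Srsf5, Snrpg and U2af2. Of these genes only Snrpn shared windows with a listed symbol, Snurf. U2af2, which partners U2af1 on the polypyrimidine tract, was 109 ± 31.3 TPM in WT libraries and 104 ± 14.96 TPM in db/db libraries (SD, n = 3 each). Its log2 fold change was -0.04 (95% interval -0.62 to 0.53). U2af2 over U2af1 ranged over 1.27, 0.93 and 1.95 (WT) against 2.3, 1.62 and 2.07 (db/db), with overlap through WT replicate 3.

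Zrsr2, which serves the 3' splice site of minor introns, was 13.2, 8.04 and 12.3 TPM in WT and 11.2, 7.82 and 7.65 TPM in db/db libraries. The groups overlapped, and the log2 fold change was -0.29 (SE 0.42, limma adjusted p = 0.929). Zrsr1, an imprinted retrogene copy of Zrsr2 that was singled out after its values were seen, lay in the opposite direction, at 4.2, 3.54 and 11.3 TPM in WT and 10.9, 10.9 and 14.3 TPM in db/db libraries (log2 fold change 0.96, SE 0.46, limma adjusted p = 0.919). To show how far reads can separate this pair, 90 aligned coding bases from GENCODE M21 follow, with the bases that differ in capitals.
Zrsr2: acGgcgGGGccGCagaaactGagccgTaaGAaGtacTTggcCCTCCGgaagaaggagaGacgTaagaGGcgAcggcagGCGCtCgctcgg
Zrsr1: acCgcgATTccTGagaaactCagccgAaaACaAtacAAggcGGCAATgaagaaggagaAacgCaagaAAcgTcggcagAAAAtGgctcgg
The pair differed at 29 of these 90 bases and was 79.6% identical over 1282 aligned bases, and no 75-base window of either gene occurred in another gene. The sum of the pair was 17.4, 11.6 and 23.6 TPM in WT and 22.1, 18.7 and 21.9 TPM in db/db libraries, with overlapping groups.

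Sm and SR transcripts differed in how they moved between libraries. The Sm genes summed to 2341, 3105 and 2137 TPM for WT and to 2039.99, 1769.6 and 1981 TPM for db/db. The SR genes summed to 1580.1, 1457 and 2132 TPM for WT and to 1828, 2169.9 and 2455 TPM for db/db. Their ratio, which does not depend on scaling, was 1.48, 2.13 and 1.0 for WT against 1.12, 0.816 and 0.807 for db/db. It was lower in db/db in all 3 experiments, and WT replicate 3 lay below db/db replicate 1. Group means were 1.54 ± 0.566 and 0.913 ± 0.176 (SD, n = 3 each), or 1.24 in WT without replicate 2. Without Snrpg in the sum the means were 0.767 ± 0.246 and 0.488 ± 0.115. As a score over chosen members this ratio carries no test.

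**Figure D3:**
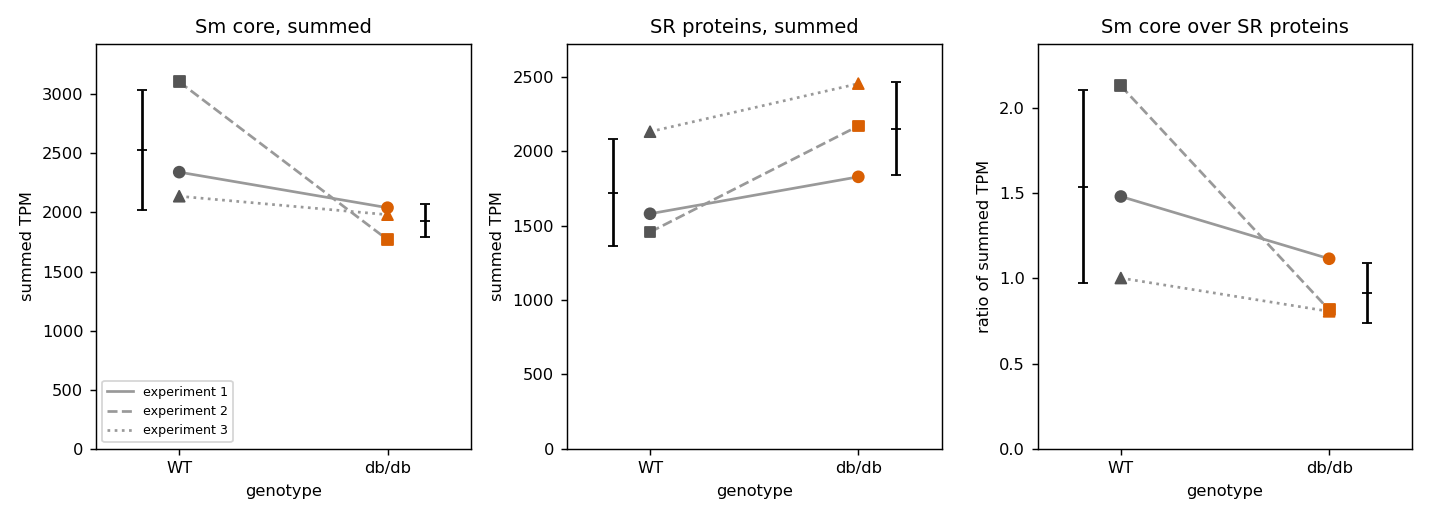
Summed TPM of the 8 Sm core genes and of the 11 SR protein genes, and the ratio of the sums, by genotype; lines join libraries of an experiment and black bars are mean ± SD (n = 3). The ratio is lower in db/db in each experiment, most in experiment 2 (2.13 to 0.816).

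Relative to all genes, the Sm genes were lower in libraries with a higher size factor. Their median log2 deviation from the gene means, taken relative to all genes, was 0.64 in WT replicate 2, which had the lowest size factor of 0.815. It was 0.20 and 0.18 in WT and db/db replicate 1, with size factors of 0.914 and 0.915. In the 3 libraries with size factors of 1.13 to 1.23 it was -0.20 (WT replicate 3), -0.35 (db/db replicate 2) and -0.32 (db/db replicate 3). In WT and db/db replicate 1, Snrpg was 1126 and 904 TPM, and the Sm to SR ratio was 1.48 and 1.12. In the same libraries Snrpd2 was 399.6 and 402 TPM, and Snrpd3 was 59.7 and 63.7 TPM. The part of genotype and of the size factor in these values was not tested. The share of TPM from 85 ribosomal protein symbols moved in the same way, and was highest in WT replicate 2 (33.3%) and lowest in db/db replicate 3 (22.4%). When the size factor entered the fit as a covariate, the Sm median relative to all genes was -0.16 in place of -0.44, and Snrpg and Snrpd2 had log2 fold changes of -0.33 and -0.28. SR medians per library, also taken relative to all genes, covered a narrower range, with -0.14 as the lowest and 0.11 as the highest. The subtracted median of all genes rose with the size factor, being -0.28 at 0.815 and 0.26 at 1.23. Without subtraction, the summed SR TPM was 1457 at the lowest size factor and 2455 at the highest. The narrow relative range therefore does not show that SR transcripts were steady between libraries.

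**Figure D4:**
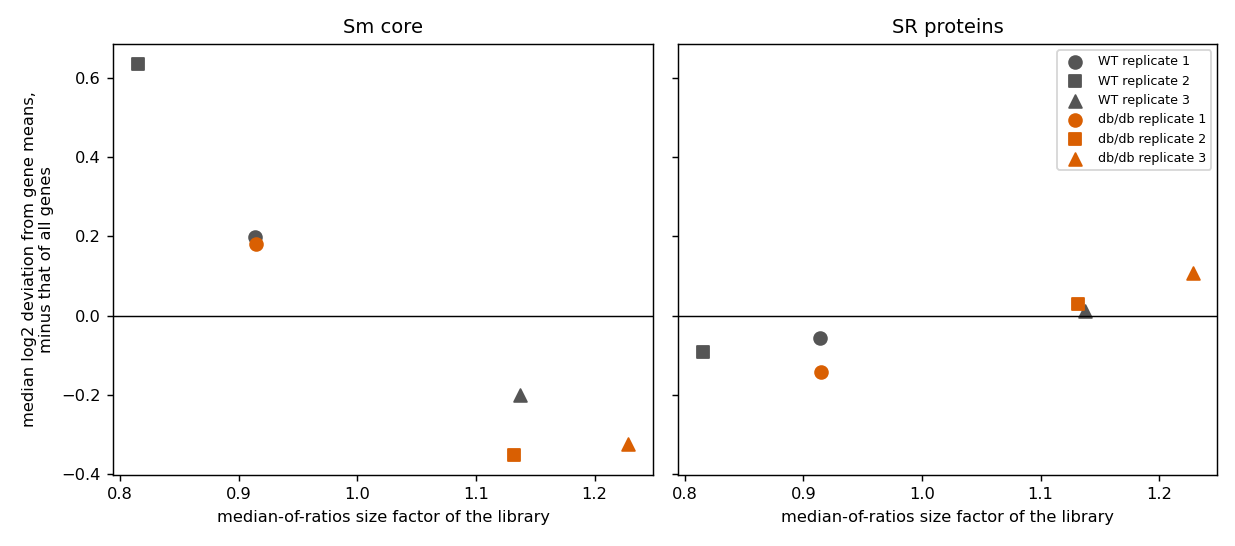
Median log2 deviation of the Sm core genes (left) and the SR protein genes (right) from their gene means, minus that of all genes, against the median-of-ratios size factor of each library. Grey is WT and orange db/db, and symbols mark the experiment. Sm values run from 0.64 at a size factor of 0.815 to -0.32 at 1.23, and SR values lie between -0.14 and 0.11. The subtracted median of all genes itself rises with the size factor, so both panels depend on it by construction.

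Transcript length ran along with the fold changes. Sm transcripts were short, with a median over genes of 1108 bases, against 1842.5 bases for SR genes and 2069.5 bases for all genes tested. Across the 34 members the log2 fold change and the length gave a Spearman's rho of 0.52, against 0.14 over 11851 genes. The members share libraries and genotype contrast, so this is a description. Of the 17 shorter members, up to 1612.5 bases, 14 had a fold change below 0, with a median of -0.23. Of the 17 longer members 2 did, with a median of 0.17. In all genes split at their median length the shorter part had a median of 0.13 and the longer part 0.23. After removal of the length trend over all genes the Sm median relative to all genes was -0.35, and U2af1 and Srsf5 had log2 fold changes of -0.55 and 0.49, of which that of Srsf5 kept an unadjusted p under 0.05 in limma.

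**Figure D5:**
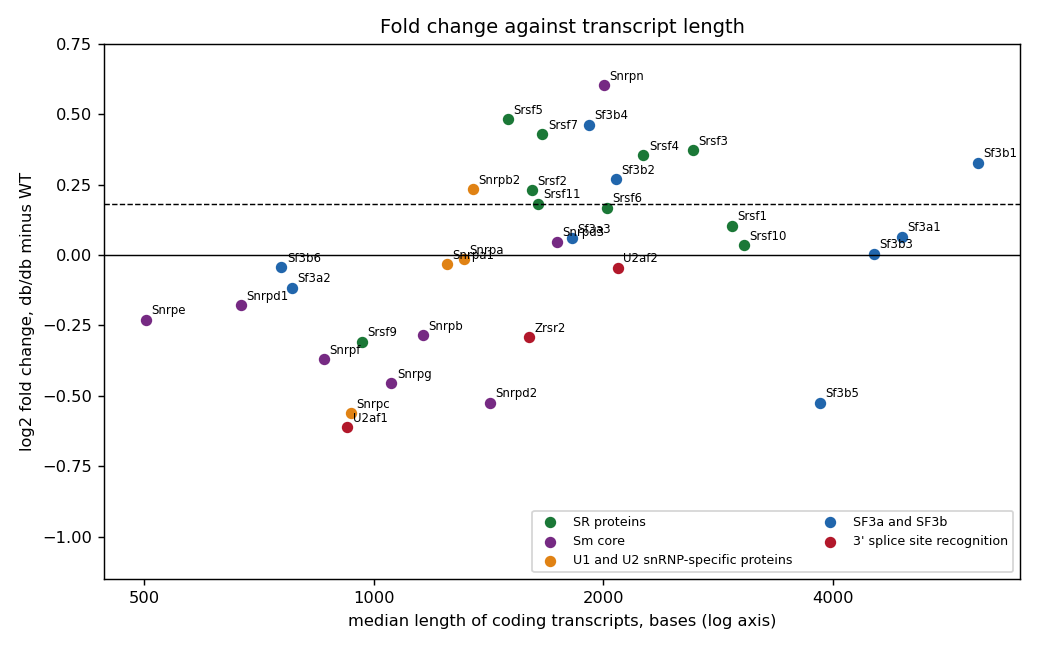
Log2 fold change of db/db minus WT for the 34 members tested against the median length of their coding transcripts in GENCODE M21 (log axis), coloured by role. The dashed line is the median of all genes at 0.18; most Sm genes lie at the lower left and most SR genes at the upper middle.

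Promoters of the members had sequence features that the choice by symbol did not use. RefSeq promoters (build GRCm38.p6, 250 bases before the start, the first listed per gene) were matched for 30 of 35 members, and Sf3b4, Sf3b5, Snrpb, Snrpd1 and U2af2 had no entry. At least 10 CpG dinucleotides were present in 93.3% of member promoters, against 74.7% for genes tested and 38.2% of all 27025 promoters. The GABP/ETS motif CCGGAAG was found on either strand in 13 of 30 member promoters, or 43.3%, against 14.7% for genes tested and 7.05% of all promoters. By role it was in 4 of 11 SR promoters (36.4%) and in 1 of 6 Sm promoters (16.7%). The other matches were in Sf3a1, Sf3a2, Sf3a3, Sf3b2, Sf3b3, Sf3b6, Snrpb2 and Snrpc. The genes tested were not matched to the members for transcript level. Of the other 6 motifs searched on both strands, the Sp1 motif GGGCGG was found in 70% of members (60% for genes tested, 32.9% of all). The NF-Y motif CCAAT was in 33.3% (36.7%, 34.5%) and the TATA motif TATAAA in 13.3% (6.02%, 13%). The CRE TGACGTCA was in 6.67% (2.78%, 1.62%), the E-box CACGTG in 3.33% (8.54%, 6.05%) and the NRF1 motif in 0% (1.7%, 0.781%). A match is a description and no evidence of binding. The 120 bases before the start are shown for the 4 members of smallest unadjusted p, with matches to these motifs in capitals, to let their composition be compared.
Srsf5 (chr12:80945379-80945498, + strand): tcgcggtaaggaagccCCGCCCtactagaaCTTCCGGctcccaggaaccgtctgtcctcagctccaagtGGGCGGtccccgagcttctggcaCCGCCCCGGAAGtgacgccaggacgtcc
U2af1 (chr17:31658765-31658884, - strand): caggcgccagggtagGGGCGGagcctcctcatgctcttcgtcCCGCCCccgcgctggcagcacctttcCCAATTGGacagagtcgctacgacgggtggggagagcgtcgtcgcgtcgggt
Snrpd2 (chr7:19149718-19149837, + strand): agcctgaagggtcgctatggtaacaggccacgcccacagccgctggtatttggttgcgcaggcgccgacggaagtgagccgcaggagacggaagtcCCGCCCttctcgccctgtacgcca
Snrpg (chr6:86371420-86371539, + strand): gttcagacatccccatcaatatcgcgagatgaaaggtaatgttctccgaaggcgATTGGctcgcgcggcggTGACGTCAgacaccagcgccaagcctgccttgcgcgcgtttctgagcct
Srsf5, higher in db/db, held 2 GABP/ETS and 3 Sp1 matches here, with an Sp1 and an ETS match that overlap near the start. U2af1 held 2 Sp1 matches and a CCAAT that overlaps its own reverse complement, Snrpd2 held 1 Sp1 match, and Snrpg held a CCAAT on the reverse strand and a CRE. No motif of this set occurred in these bases of all 3 genes that were lower in db/db. Within the full 250 bases Snrpg also held a GABP/ETS match, which lies outside the part shown.

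Other genes of the splicing pathway stayed near the median gene. Of 127 genes on 10 lists, 0 passed in either direction in limma (0.0335% of all genes did), with adjusted p of 0.754 or more. At an unadjusted p under 0.05, 5 were higher (4.1% of all genes) and 1 was lower (1.25%). Groups did not overlap for 7 of the 127 with db/db higher and for 1 with db/db lower. Over all genes tested these shares were 7.85% and 2.32%, so the genes without overlap named below are no result about the lists. The median was 0.19, or 0.01 above all genes, with single genes from -0.74 to 0.99. Clk1, a kinase that phosphorylates SR proteins, had the smallest p of these genes. It was 76.9, 52.5 and 78.1 TPM in WT and 88.9, 155 and 131 TPM in db/db libraries, with no overlap, and differed by 0.83 on the log2 scale (SE 0.29, adjusted p in limma 0.754, unadjusted p = 0.00932). The list of SR-related proteins and SR kinases had 8 of 15 genes above the median of all genes, and its most abundant gene, Rnps1, a factor of the exon junction, was 171 ± 29.4 and 208 ± 31.3 TPM.

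The LSm list lay lowest of the 10, with a median of -0.03, or -0.21 relative to all genes. LSm proteins form rings like those of the Sm proteins, around U6 RNA or on mRNA that is to be degraded. Of 8 genes 6 lay below the median gene. Lsm2 was 283, 331 and 201 TPM in WT and 253, 179 and 176 TPM in db/db libraries (log2 fold change -0.41, SE 0.26, limma adjusted p = 0.919), with overlap through WT replicate 3. Lsm7, the most abundant, was 242 ± 37.4 and 251 ± 16.8 TPM (SD, n = 3 each).

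In the tri-snRNP list of 16 genes the median was 0.20. Txnl4a, a small protein of the U5 snRNP, was 58.6, 68.0 and 70.7 TPM in WT and 45.3, 27.3 and 59.0 TPM in db/db libraries (log2 fold change -0.64, SE 0.32), and Nhp2l1, which binds U4 RNA, was 398 ± 20.8 and 427 ± 39.2 TPM. Among 9 minor spliceosome genes Snrnp25, a protein of the U11/U12 particle, did not overlap between groups, at 39.9, 41.4 and 71.4 TPM in WT and 33.5, 19.0 and 38.2 TPM in db/db libraries (log2 fold change -0.74, SE 0.35, limma adjusted p = 0.919). Its most abundant companion, Scnm1, was 79.1 ± 15.8 and 68.1 ± 16.4 TPM. Among 17 genes of the Prp19 complex and activation, with a median of 0.18, Cwc22, which guides the exon junction complex to spliced mRNA, was 5.36, 4.78 and 4.54 TPM in WT and 5.98, 13.3 and 15.1 TPM in db/db libraries. Its groups did not overlap, and its log2 fold change was 0.99 (SE 0.46, limma adjusted p = 0.919). Syf2, the most abundant of that list, was 84.8 ± 16.1 and 77.1 ± 6.26 TPM.

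The other 5 lists had medians of 0.05 to 0.26. Among 9 U1 partners, Tia1, which promotes U1 binding at weak sites, was 11.2 ± 2.42 and 21.6 ± 9.41 TPM, and Snrnp70, the U1 70K protein, was 131 ± 18.3 and 142 ± 40.4 TPM (SD, n = 3 each). Among 11 branch site and U2 partners, the helicase gene Ddx39b was the most abundant and had the smallest p, at 224, 207 and 369 TPM in WT and 306, 438 and 434 TPM in db/db libraries (log2 fold change 0.59, SE 0.26, limma adjusted p = 0.904). Among 25 hnRNP genes Ptbp1, a repressor of exon inclusion, was 458 ± 17.0 and 514 ± 32.3 TPM with no overlap between groups, and Pcbp2 was 271 ± 131 and 371 ± 68.9 TPM. In the exon junction complex (5 genes) Eif4a3 was 178 ± 18.6 and 219.9 ± 33.3 TPM and Magoh 252 ± 67.4 and 264 ± 95.6 TPM. Among 12 genes of the SMN complex, which loads the Sm ring, Gemin2 was 18.6 ± 3.16 and 29.2 ± 8.61 TPM with no overlap, and Clns1a, which holds Sm proteins before loading, was 76.2 ± 10.8 and 86.5 ± 20.7 TPM (SD, n = 3 each). None of these passed.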

How the data were processed

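RNA was measured in 6 HSC libraries by stranded mRNA sequencing of amplified RNA, in pairs of 75 nucleotides, per the labels' protocols. The deposited values are TPM per gene symbol, made by the authors with RSEM and Bowtie2 on mm9 (from the notes on processing that the submitters gave, per the labels). Tool versions, settings and the annotation are not given in the sources used here. A TPM per gene adds all its isoforms and so isoform use was not measured. limma 3.58.1 in R 4.3.3 was run on log2(TPM + 1) over the 11931 genes whose mean reached 1 TPM. The fit held genotype alone, used a trend and two-sided tests, and was tested on simulated data. Members and lists were chosen with earlier results of these data known. Members described by library were set by a rule: the 4 known mutation targets, the most abundant and the 3 of smallest p per role, and any that passed or were too low to test. Each pathway list gave its most abundant gene and that of smallest p.

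The experiment numbers in the labels pair the libraries. Deviations from group means correlated at 0.04, 0.01 and 0.16 within experiments and at -0.12 to 0.08 between them. At most 0.654% of genes had identical values in any pair of libraries. Lengths came from GENCODE M21 (99.3% of genes tested) and promoters from RefSeq, both on GRCm38. No mm9 coordinate was used. The number of libraries sets the precision. The labels call the experiments independent but do not say how many mice each used. An item of the HSC marker list is not reported here, and the list was summed without it.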

Additional observations from a re-analysis of the deposited data

How the results depend on the processing

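Under each of the 20 alternatives 0 splicing factor members and 0 of the 127 other splicing genes passed in limma, and the experiment as replicate block changed no call of theirs (smallest adjusted p of a member 0.632 with the replicate block, 6 genes passing in all). The number of all genes that passed, 4, was 0 without a filter and without the trend, and 1 after median-of-ratios scaling, after quantile normalization and with the robust prior. With each library left out in turn it ran from 0 to 16. The median of the members, 0.02, was -0.17 after median-of-ratios scaling, -0.16 after quantile normalization and -0.17 with the log2 size factor as covariate, and ran from -0.14 to 0.21 with a library left out. Relative to all genes it kept its sign under all 20, from -0.24 to -0.085. Alternatives with the size factor, the length trend and the GC trend were chosen after seeing the data.

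Signs turned for genes with fold changes from -0.04 (U2af2) to 0.23 (Srsf2 and Snrpb2). Log2 fold changes under median-of-ratios scaling were -0.11 for Snrnp70, -0.10 for Nhp2l1, -0.13 for Lsm7, -0.029 for Ptbp1, -0.15 for Magoh and -0.033 for Clns1a. After quantile normalization it was -0.050, -0.00045, -0.041, -0.071 and -0.0098 for Snrnp70, Nhp2l1, Lsm7, Magoh and Clns1a. With the size factor covariate it was -0.030 for Srsf2, 0.084 for Snrpa, -0.18 for Snrpb2, -0.091 for Snrnp70, -0.29 for Magoh and -0.055 for Clns1a. With the length trend removed Snrpa was at 0.0096, and with the GC trend removed Snrpa was at 0.058, U2af2 at 0.013 and Magoh at -0.031, each with and without the block. The cause was not tested. Leaving out a library gave -0.18 to 0.17 for Snrpa, -0.33 to 0.29 for Snrpa1, -0.18 to 0.18 for U2af2, -0.13 to 0.24 for Snrnp70, -0.026 to 0.18 for Lsm7 and -0.24 to 0.23 for Magoh. Depth is unknown, so counting error could not be set beside these values.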
